A study of Mus musculus with 27 samples.

Results

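The comparison set mouse lung fibroblasts cultured for 35 d in the vehicle DMSO against the same kind of cells cultured for 15 d in DMSO. Libraries were chosen by their titles, which gave 3 libraries at 35 d (S13, S14 and S15) and 3 at 15 d (S1, S2 and S3), or 6 of the 27 libraries of the series, and every gene that passed a filter on low counts was tested. All cells were primary fibroblasts from the lungs of wild-type mice of the C57BL/6 strain, grown in DMEM with 15% fetal bovine serum at 3% oxygen, with no genetic change in any group. The series was built around KU60019, which inhibits ATM, a kinase of the DNA damage response, and DMSO is the solvent that its control cultures received. Other groups used below for comparison were cells with 3 uM KU60019 for 15 or 35 d, cells whose DMSO was taken away after 15 d and which were harvested 20 d later, and, for levels alone, the remaining removal groups and cells harvested 10 d after 10 Gy of X-rays. The labels describe a primary culture and not a sorted one, so cells of other lung types may be present, and they do not say whether the 3 libraries of a group came from separate animals or cultures, and the tests may therefore reflect technical spread alone.

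Fibroblasts are the matrix-producing cells of lung connective tissue, and primary cultures are usually started from digested or minced tissue that also holds endothelial cells, macrophages, pericytes and epithelium. Immediate early genes encode transcription factors of the AP-1 and EGR families and feedback regulators such as phosphatases and RNA-decay factors. Cells induce them shortly after a growth factor, a change of serum or a stress, from transcription factors that are already present, and their messages are short-lived.

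Between 26604303 and 50859493 reads were counted per DMSO library, with 41114615 in S3 and 50859493 in S15 as the deepest of each group. Ribosomal RNA genes took at most 0.222% of counts in these 6 libraries and mitochondrial mRNAs between 1.56% and 1.88%. Library S2 differed from the other 15 d libraries in its relation of level to gene length: Spearman's rho across genes was -0.09 in S2 against 0.31 in S1 and 0.27 in S3, and was 0.06 in S13 against 0.31 in S14 and 0.25 in S15. Levels are given below as CPM, counts scaled to a common library total that was adjusted by TMM factors, with the 3 libraries always in the order of their titles (S1, S2, S3 at 15 d and S13, S14, S15 at 35 d). Log2 fold changes are 35 d over 15 d with their standard error (SE), and adjusted p-values are Benjamini-Hochberg values of edgeR's quasi-likelihood test over all genes tested, unless another tool is named.

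At 35 d against 15 d in DMSO, 9 of 21 immediate early genes rose, and 13 of 18 endothelial and 6 of 14 macrophage markers fell. Of 15 fibroblast markers 0 passed the test (3 at an unadjusted p under 0.05, and 0 with DESeq2). Culture time cannot be told apart from anything else that differed between the groups, such as handling at harvest. Of 18684 genes tested, 292 changed (1.56%) at an adjusted p under 0.05. Of these, 85 were higher at 35 d (0.455% of genes tested) and 207 were lower (1.11%). The median log2 fold change of all genes tested was -0.01. A change of at least 2-fold was seen in 54 of the higher and 179 of the lower genes, and one of at least 4-fold in 16 and 121. The higher genes were mostly well expressed, with a median level of 55.3 CPM at 35 d, whereas the lower genes had a median of 2.23 CPM at 15 d and 147 of the 207 were under 5 CPM there. The 3 libraries of each time did not overlap in 290 of the 292 genes, against 15.3% of all genes tested; called genes are selected for such a separation. Library S1 was the highest of the 15 d libraries in 129 of the 207 lower genes, and S2 was the lowest in 58 of the 85 higher genes. Scaled by library size alone, 55 genes were higher and 235 lower (19% of calls higher against 29.1%), and after correction for gene length within libraries 100 were higher and 210 lower.

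The test took its spread from all 27 libraries, and the count was far lower without the libraries of other groups. When only the 6 DMSO libraries were fitted, edgeR called 14 genes, all of them among the 292: Jun, Ier2, Fosb, Dusp1, Junb, Ier5, Zfp36 and Tulp2 were higher and Emcn, Cd93, Pdgfb, Cxcr4, Ptprd and Pamr1 lower. Without S13 the count was 150, without S14 it was 177 and without S15 it was 125. The count of higher genes was 42, 51 and 40 without S13, S14 and S15. It was 67, 41 and 71 without S1, S2 and S3.

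**Figure D1:**
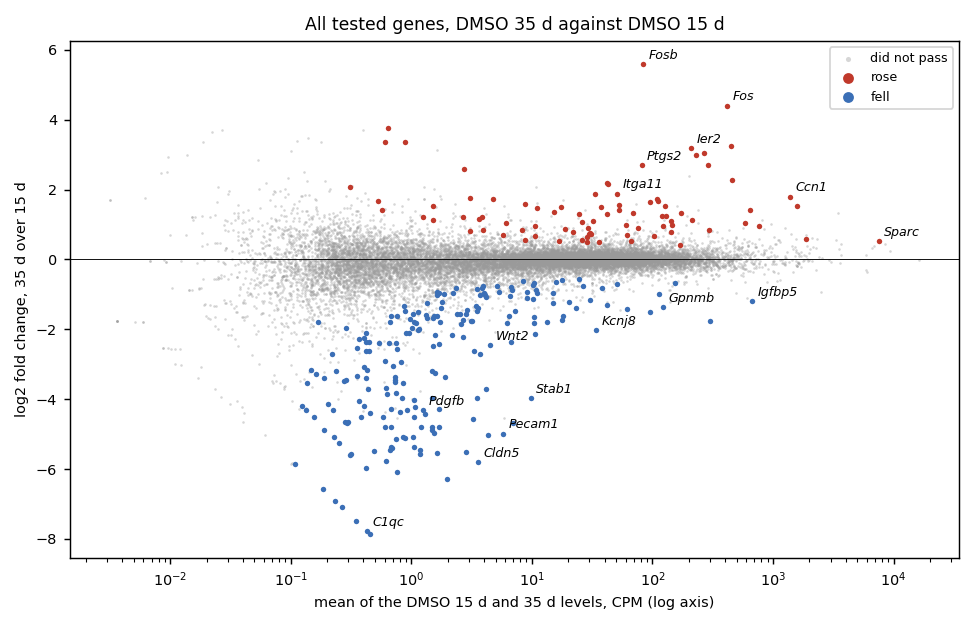
Each point is 1 of the 18684 genes tested; the x axis is the mean of the 15 d and 35 d levels (CPM, log axis) and the y axis the fitted log2 fold change of DMSO 35 d over DMSO 15 d, with genes that rose in red, those that fell in blue and the rest in grey. The 85 higher genes lie mostly at moderate or high levels and the 207 lower genes mostly at low ones, and fitted changes of genes with 0 counts at 35 d, such as C1qc, are no measured size.

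Genes of the immediate early response gave the largest rises. Of the 12 largest rises by the naming rule (adjusted p under 0.05, at least 5 CPM, no overlap of libraries), 6 are on the immediate early list (Fosb, Fos, Egr1, Ier2, Dusp1 and Junb), and Zfp36 and Btg2 are also known as rapidly induced genes. On that list, 9 of 21 members rose and 0 fell, against 0.455% and 1.11% of all genes, and the median log2 fold change of the list was 1.46 against -0.01 over all genes. All 21 fitted changes lay above 0, as did 8795 of the 18684 over all genes. In 15 members every 35 d library was above every 15 d library, against 7.51% of all genes.

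Fos encodes the partner of JUN proteins in the AP-1 transcription factor (ENSMUSG00000021250, GRCm38 chromosome 12, 85473890 to 85477273, plus strand). It measured 65.3, 13.2 and 33.8 CPM at 15 d and 725, 727 and 926 CPM at 35 d. The lowest 35 d library was thus more than an order of magnitude above the highest 15 d library, and S2 was the lowest of the 15 d group. The log2 fold change was 4.40 ± 0.51 (adjusted p = 2.83e-05). Fosb, a close relative of Fos on chromosome 7 (19302696 to 19310051, minus strand), measured 4.55, 2.62 and 3.07 CPM at 15 d and 85.6, 163 and 244 CPM at 35 d. It had the largest fitted rise of any gene named here, 5.59 ± 0.77 on the log2 scale (adjusted p = 0.000267), and its 35 d libraries were more spread than those of Fos.

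In the JUN family 2 of 3 genes rose. Junb (chromosome 8, 84974484 to 84978718, minus strand) measured 201, 135 and 132 CPM at 15 d and 726, 665 and 860 CPM at 35 d, a log2 fold change of 2.27 ± 0.35 (adjusted p = 0.000729). Jun, the founding AP-1 member, measured 54.3, 45.7 and 51.9 CPM and then 156, 183 and 164 CPM (1.73 ± 0.27, adjusted p = 0.000972). The spread of Jun within either time was small, and no library of the earlier time came near the later ones. Jund, which is usually expressed without a stimulus, measured 26.6, 65.6 and 30.1 CPM and then 60.7, 43.5 and 48.2 CPM, with overlapping libraries and an adjusted p of 1. Of the FOS relatives, Fosl1 went from 7.20, 4.16 and 6.21 CPM to 16.2, 14.6 and 17.8 CPM (1.46 ± 0.33, adjusted p = 0.0187), a call that was lost without S2, S3, S13 or S15 (adjusted p from 0.055 to 0.124). Fosl2 did not pass, at a log2 fold change of 0.12 ± 0.20 with overlapping libraries.

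Egr1, a zinc finger factor induced by serum and growth factors, measured 171, 27.6 and 58.2 CPM at 15 d and 831, 683 and 919 CPM at 35 d (log2 fold change 3.24 ± 0.50, adjusted p = 0.000779). Its 15 d libraries differed more among themselves than its 35 d libraries, with S1 the highest. Ier2, an immediate early gene of nuclear protein, had the lowest p of all genes named here. It measured 52.4, 37.9 and 34.1 CPM and then 435, 355 and 345 CPM (3.19 ± 0.26, adjusted p = 3.48e-07; chromosome 8, 84661331 to 84662852, minus strand). Ier3, which is linked to survival under stress, measured 58.1, 59.1 and 41.7 CPM and then 203, 162 and 140 CPM (1.67 ± 0.18, adjusted p = 1.88e-05). For both genes each 35 d library lay well above every 15 d library.

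Dusp1 and Zfp36, regulators that end the response, rose with its activators, and so did Btg2. Dusp1, a phosphatase that inactivates MAP kinases, measured 77.5, 40.0 and 55.0 CPM and then 495, 432 and 492 CPM (3.04 ± 0.36, adjusted p = 3.66e-05). Zfp36, which directs AU-rich messages to decay, measured 74.5, 31.2 and 49.1 CPM and then 401, 395 and 430 CPM (2.98 ± 0.41, adjusted p = 0.000217). Btg2, an antiproliferative p53 target that growth factors also induce, measured 113, 46.3 and 67.2 CPM and then 482, 378 and 631 CPM (2.72 ± 0.36, adjusted p = 0.000178). In these 3 genes the 15 d libraries kept the order S1, S3, S2, while the 35 d libraries lay close together in Dusp1 and Zfp36 and further apart in Btg2.

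The other 12 members of the list did not pass. Nr4a1, an orphan nuclear receptor, came closest with 121, 35.5 and 39.6 CPM against 283, 210 and 526 CPM (2.38 ± 0.63, adjusted p = 0.0564). Egr2 had a log2 fold change of 2.07 ± 0.65 (adjusted p = 0.143), and Klf4, Myc, Srf and Maff lay between 0.45 and 1.13 with libraries that did not overlap. Atf3, Egr3, Nr4a2 and Nr4a3 overlapped between the times. The number of list members that rose was between 8 and 11 in every alternative processing run except the fit of the 6 DMSO libraries alone, where it was 5 (Jun, Ier2, Fosb, Dusp1 and Junb). Summed over the list, the level was 794.5, 864.5 and 1303 CPM in the 15 d libraries ordered by size and 4117, 4508 and 5337 CPM at 35 d.

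**Figure D2:**
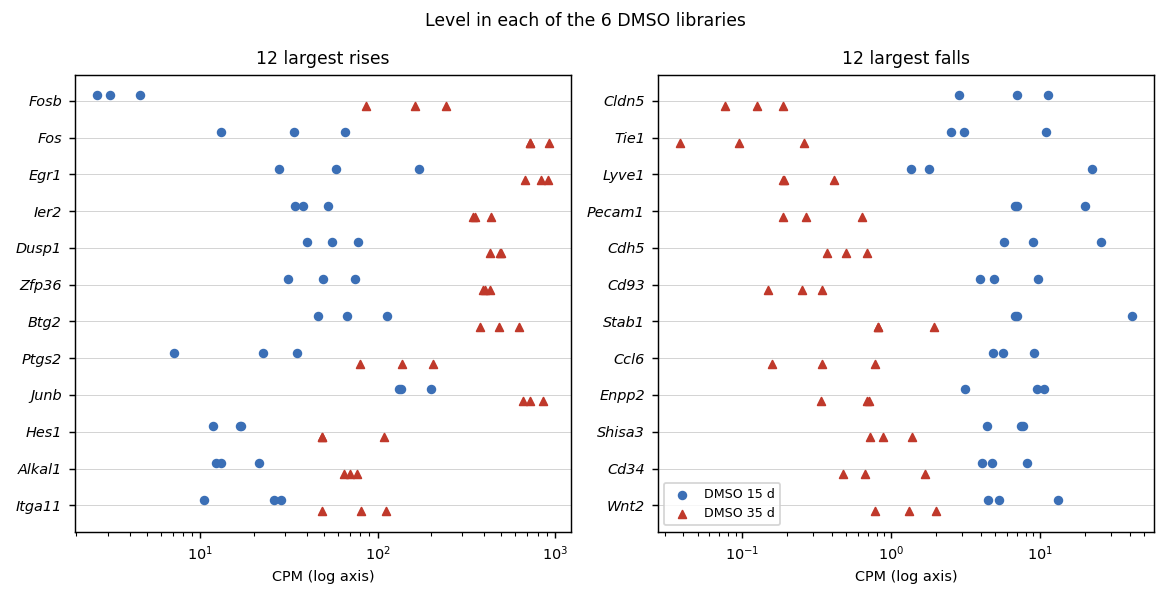
Level in each of the 6 DMSO libraries (CPM, log axis) of the genes with the 12 largest rises (left) and the 12 largest falls (right); circles are the 15 d libraries and triangles the 35 d libraries. For Fos the 15 d points lie between 13.2 and 65.3 CPM and the 35 d points between 725 and 926 CPM; for Pecam1 the order is reversed, from between 6.75 and 19.9 CPM down to between 0.189 and 0.634 CPM.

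Since these genes moved together, their promoters were read for 3 sequence elements through which serum, cyclic AMP and AP-1 itself are known to act. The elements were the CArG box bound by SRF, the cyclic AMP response element TGACGTCA and the AP-1 site TGANTCA, searched on both strands in the 250 bases before each RefSeq transcription start of GRCm38.p6. A match to one of these patterns is not by itself a match to another, although neighbouring matches may overlap. In all 32851 promoters of the table, 1.47% held a CArG box, 1.55% a cyclic AMP element and 6.75% an AP-1 site, and per gene the shares were 1.62%, 1.77% and 7.82% of 27025 genes. Of the 85 higher genes 56 were in the table; 4 held a CArG box (7.14%), 6 a cyclic AMP element (10.7%) and 3 an AP-1 site (5.36%). Of the 207 lower genes 142 were in the table, with 2 (1.41%), 1 (0.704%) and 13 (9.15%). The promoters of Zfp36, Dusp1 and Btg2, which hold a match, and that of Fos are printed 5′ to 3′ with the matched element in capitals. They were chosen since all 4 genes rose and differ in which pattern they hold, and they do not stand for the immediate early list. Of its 21 genes 16 were in the table. A CArG box was held by 2 (Egr2 and Srf), a cyclic AMP element by 2 (Dusp1 and Maff) and an AP-1 site by 0. Of these, only Dusp1 rose. The promoters of Fosb, Jun, Junb and Ier3, which rose, held none of the 3 patterns. Zfp36 (chr7:28379229-28379478, minus strand) has a CArG box 58 bases before its start. Dusp1 (chr17:26508473-26508722, minus strand) and Btg2 (chr1:134079156-134079405, minus strand) have the cyclic AMP element 143 and 166 bases before theirs. Fos (chr12:85473640-85473889, plus strand) holds none of the 3 patterns in this window, so it carries no capitals.
Zfp36: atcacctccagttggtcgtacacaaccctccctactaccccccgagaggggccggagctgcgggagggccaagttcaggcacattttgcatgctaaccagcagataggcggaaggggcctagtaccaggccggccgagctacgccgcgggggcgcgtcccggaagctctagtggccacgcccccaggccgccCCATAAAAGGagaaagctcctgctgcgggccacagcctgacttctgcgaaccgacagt
Dusp1: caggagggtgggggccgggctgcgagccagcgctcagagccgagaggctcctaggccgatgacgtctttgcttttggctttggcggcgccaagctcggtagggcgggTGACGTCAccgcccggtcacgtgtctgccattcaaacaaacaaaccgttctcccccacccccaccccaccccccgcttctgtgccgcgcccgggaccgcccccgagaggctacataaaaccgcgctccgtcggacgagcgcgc
Btg2: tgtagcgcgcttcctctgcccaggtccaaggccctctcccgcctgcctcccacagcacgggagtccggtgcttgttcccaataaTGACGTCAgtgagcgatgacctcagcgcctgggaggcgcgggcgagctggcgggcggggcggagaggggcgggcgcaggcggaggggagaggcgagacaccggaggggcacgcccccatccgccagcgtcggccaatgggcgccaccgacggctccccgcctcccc
Fos: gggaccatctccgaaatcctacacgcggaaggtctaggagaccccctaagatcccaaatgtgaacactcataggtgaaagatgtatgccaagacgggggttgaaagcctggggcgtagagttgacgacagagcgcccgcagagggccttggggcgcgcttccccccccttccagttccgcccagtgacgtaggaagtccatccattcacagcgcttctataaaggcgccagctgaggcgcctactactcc
The letters show where a pattern occurs and not whether a factor bound there in these cells. Egr1, Ier2, Fosl1, Egr3, Myc, Ccn2 and Hes1 were not matched to the promoter table.

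Other rises among the 12 largest came from genes of inflammation, Notch signalling and adhesion. Ptgs2, the inducible cyclooxygenase of prostaglandin synthesis, measured 22.6, 7.06 and 35.0 CPM at 15 d and 79.5, 137 and 206 CPM at 35 d (log2 fold change 2.70 ± 0.49, adjusted p = 0.00356). Hes1, a repressor induced by Notch, measured 11.8, 17.1 and 16.7 CPM and then 48.6, 48.6 and 109 CPM (2.18 ± 0.33, adjusted p = 0.000657). S15 was the highest library in both genes. Alkal1, a ligand of the receptor kinase ALK, measured 13.03, 12.2 and 21.5 CPM and then 76.5, 64.7 and 70.1 CPM (2.17 ± 0.46, adjusted p = 0.0132), a call lost without S1, S2 or S13 (adjusted p 0.0706, 0.0815 and 0.051). Itga11, the collagen-binding integrin alpha 11, measured 28.4, 10.5 and 26.04 CPM and then 48.6, 111 and 80.5 CPM (1.88 ± 0.37, adjusted p = 0.00739, and 0.0531 without S14).

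Of 15 matricellular genes 3 rose, against 0.455% of all genes. Ccn1, a secreted integrin ligand, measured 975, 334 and 547 CPM and then 2106, 1774 and 2583 CPM (1.80 ± 0.30, adjusted p = 0.00158). Ccn2, connective tissue growth factor, measured 344, 202 and 512 CPM and then 994, 891 and 928 CPM (1.41 ± 0.27, adjusted p = 0.00544). For both genes S2 was the lowest library and no 15 d library reached the 35 d range. Sparc, a collagen-binding glycoprotein, had a log2 fold change of 0.53 ± 0.13 (adjusted p = 0.0388). The call of Sparc was lost without any 1 of the 6 libraries (adjusted p from 0.0817 to 0.169). On that list 0 members fell and the median was 0.29. Of 14 TGF-beta pathway genes 1 rose and 0 fell, 8 fitted changes lay above 0 and 6 under it, and the median was 0.03.

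Markers of endothelial cells fell, many of them to near 0. Of the 12 largest falls by the naming rule, 5 are on the endothelial list (Cldn5, Tie1, Lyve1, Pecam1 and Cdh5), and Cd93 and Stab1 are also known from endothelium. On the endothelial list 13 of 18 members fell and 0 rose, against 1.11% and 0.455% of all genes, and the list's median log2 fold change was -3.36. In 16 of the 18 the 3 libraries at 35 d all lay under those at 15 d, which was so in 7.77% of all genes.

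Junction and adhesion proteins fell to near the limit of detection. Pecam1, which joins endothelial cells to each other (ENSMUSG00000020717, chromosome 11, 106654217 to 106750628, minus strand), measured 19.9, 6.95 and 6.75 CPM at 15 d and 0.634, 0.189 and 0.267 CPM at 35 d. The log2 fold change was -4.99 ± 0.56 (adjusted p = 1.88e-05). Cdh5, VE-cadherin, measured 25.5, 5.73 and 8.89 CPM and then 0.373, 0.691 and 0.496 CPM (-4.67 ± 0.66, adjusted p = 0.000378; chromosome 8, 104101625 to 104144511, plus strand). Cldn5, a tight junction claudin, measured 11.3, 7.02 and 2.85 CPM and then 0.186, 0.126 and 0.0763 CPM (-5.81 ± 0.78, adjusted p = 0.000178; chromosome 16, 18776847 to 18778262, plus strand). In these genes S1 was the highest library at 15 d, and even the lowest 15 d library was several times the highest 35 d library. Emcn, the sialomucin endomucin, fell from 4.21, 2.90 and 1.79 CPM to 0.112, 0.0943 and 0.0763 CPM (-4.96 ± 0.79, adjusted p = 0.000972).

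Receptors and scavengers of endothelium followed. Tie1, an orphan receptor kinase of the angiopoietin system, measured 10.99, 2.51 and 3.07 CPM and then 0.261, 0.0943 and 0.0381 CPM (-5.52 ± 0.94, adjusted p = 0.00258). Cd93, a C-type lectin receptor, measured 9.74, 3.94 and 4.92 CPM and then 0.149, 0.251 and 0.343 CPM (-4.56 ± 0.49, adjusted p = 1.88e-05). Lyve1, which binds hyaluronan on lymphatic vessels and on a subset of macrophages, measured 22.2, 1.36 and 1.79 CPM and then 0.410, 0.189 and 0.191 CPM. S1 alone carried most of the 15 d signal of Lyve1, and the call (-5.04 ± 1.06, adjusted p = 0.0122) was lost without S1, S13, S14 or S15 (adjusted p 0.2, 0.0521, 0.0773 and 0.0991). Stab1, a scavenger receptor of sinusoidal endothelium and macrophages, measured 41.3, 6.74 and 7.02 CPM and then 1.94, 0.817 and 0.820 CPM (-3.97 ± 0.72, adjusted p = 0.00356). Kdr, the main VEGF receptor, measured 6.11, 1.90 and 1.63 CPM and then 0.112, 0.220 and 0.152 CPM (-4.27 ± 0.73, adjusted p = 0.00204).

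Transcription factors of endothelium were low throughout. Sox17 had 71 counts over the 15 d libraries and 0 over the 35 d libraries, which makes it at least 24.7-fold lower if the 35 d group is given a floor of 3 counts in all. Sox18 fell with a log2 fold change of -5.53 ± 0.87 (adjusted p = 0.000972) and Erg with -2.09 ± 0.52 (adjusted p = 0.0408). Egfl7, a secreted endothelial factor, kept a measurable level, 26.1, 16.7 and 8.82 CPM against 4.47, 3.64 and 3.62 CPM (-2.14 ± 0.28, adjusted p = 0.000178). The members that did not pass were Flt1, Eng, Ramp2, Vwf and Prox1. Eng, a TGF-beta co-receptor that fibroblasts also express, measured 134, 126 and 97.3 CPM and then 130, 127 and 126 CPM, and Flt1 had a log2 fold change of 0.61 ± 0.40.

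Eng made up most of the list's level in each of the 6 DMSO libraries but S1. With Eng, the summed level of the list overlapped between the times, with 158, 194 and 299 CPM at 15 d and 150, 155 and 159 CPM at 35 d. Without Eng, a split chosen after its values were seen, it was 60.8, 67.2 and 165 CPM at 15 d and 24.4, 28.2 and 28.4 CPM at 35 d. The number of members that fell was 11 to 15 across the alternatives on counts with all 27 libraries or with 1 left out. It was 7 with limma on TPM, with a pseudocount of 1 or of 0.1, and 1 (Emcn) when only the 6 DMSO libraries were fitted. The limma runs did not test every member, since at least Sox17 and Tie1 were left out. In bulk RNA, fewer endothelial cells and less of each RNA per cell cannot be told apart, here and for the cell types that follow.

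Some markers of macrophages fell, the C1q genes to near 0, while the summed level of the list overlapped between the times. Of 17 listed markers 14 passed the filter on low counts, 6 fell and 0 rose, against 1.11% and 0.455% of all genes. The median log2 fold change was -1.59. In 11 of the 14 all 35 d libraries lay under the 15 d ones, against 7.77% of all genes. C1qa, C1qb and C1qc encode the 3 chains of complement component C1q, which macrophages make. C1qa had 127 counts over the 15 d libraries and 3 over the 35 d libraries, a ratio of 44.1 after scaling (95% exact counting interval 14.8 to 217). C1qb had 144 and 2 counts (75.1, interval 20.4 to 626). C1qc had 83 and 0 counts, at least 28.9-fold lower against the floor of 3 counts. S3 was the lowest 15 d library of all 3 C1q genes, and S1 the highest.

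Other macrophage markers behaved unevenly. Mrc1, the mannose receptor, measured 1.89, 0.681 and 0.632 CPM and then 0.0745, 0.157 and 0.172 CPM (-2.89 ± 0.54, adjusted p = 0.00439). Cd74, the invariant chain of MHC class II, had 26 and 2 counts (ratio 13.6, interval 3.39 to 118). Adgre1, which encodes F4/80, had 34 and 0 counts and Ptprc, which encodes CD45, 19 and 0; both stayed under the filter and were not tested. Cd68, a lysosomal protein that fibroblasts also express, measured 2.23, 2.04 and 2.62 CPM against 3.21, 2.80 and 2.40 CPM and did not pass. Ccl6, a chemokine of myeloid cells, was among the 12 largest falls, with 9.13, 5.59 and 4.84 CPM and then 0.783, 0.157 and 0.343 CPM (-3.97 ± 0.62, adjusted p = 0.000953). The summed macrophage list was 53.3, 76.7 and 116 CPM at 15 d and 43.9, 50.1 and 61.7 CPM at 35 d, with overlap. The number of members that fell was 1 without S15, and without it C1qa, C1qb and Cd74 had adjusted p-values of 0.0626, 0.0739 and 0.0544. It was 3 with limma on TPM and 0 with edgeR on the 6 DMSO libraries alone. Not every member was tested in these runs: limma left out Mrc1, Cd74 and C1qc, and the 6-library fit left out C1qa, C1qc and Cd74. The call of C1qc was lost without any 1 of 5 libraries (adjusted p from 0.0556 to 0.149).

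Single genes of lysosomes and proteases that macrophages are known to express also fell. Ctss, cathepsin S of antigen-presenting cells, had 104 counts at 15 d and 2 at 35 d (ratio 54.2, interval 14.6 to 454). Mmp12, macrophage elastase, measured 3.72, 1.58 and 0.915 CPM and then 0.0745, 0.0628 and 0.0191 CPM (-5.36 ± 0.95, adjusted p = 0.00297). Mmp9, gelatinase B, fell too (-3.51 ± 0.90, adjusted p = 0.0477), but its libraries overlapped and the call was lost without S1, S13 or S15 (adjusted p 0.608, 0.215 and 0.302). Cd36, a fatty acid receptor of macrophages, endothelium and adipocytes, had 38 counts and 0, at least 13.2-fold lower, and its adjusted p was 0.0544 without S1 and 0.0782 without S15. Gpnmb, a lysosomal glycoprotein that was abundant here, measured 192, 167 and 173 CPM and then 82.8, 47.9 and 76.3 CPM (-1.36 ± 0.28, adjusted p = 0.00862, and 0.0737 without S14). Ctss and Gpnmb were the only 2 of 30 lysosome genes that changed, and the list's median was -0.18. Of 24 matrix proteases and inhibitors 2 fell and 1 rose, with 12 fitted changes on either side of 0 and a median of 0.01. The part that a change in the number of macrophages has in these values was not tested.

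Other cell types gave few calls, though the medians of the Schwann and epithelial lists were -1.88 and -1.27. Of 10 tested pericyte markers (11 listed), 2 fell and 0 rose, with a median of -0.21. These were Kcnj8 and Abcc9, the pore and the regulatory subunit of a vascular ATP-sensitive potassium channel on chromosome 6. Kcnj8 measured 49.2, 74.2 and 42.1 CPM and then 9.88, 17.9 and 12.7 CPM (-2.03 ± 0.36, adjusted p = 0.00275). Abcc9 measured 22.8, 11.9 and 14.1 CPM and then 3.35, 6.19 and 4.23 CPM (-1.83 ± 0.42, adjusted p = 0.0225), a call lost without S1, S13 or S15 (adjusted p 0.126, 0.144 and 0.136). Pdgfrb, the receptor that defines pericytes and is also carried by fibroblasts, measured 603, 460 and 560 CPM against 559, 594 and 626 CPM. The summed pericyte list was 773 to 949 CPM at 15 d and 796 to 919 CPM at 35 d.

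Of 13 epithelial markers 6 were tested and 1 fell: Sftpc, the surfactant protein C gene of alveolar type 2 cells, with 65 counts at 15 d and 4 at 35 d (-4.06 ± 0.77, adjusted p = 0.00481, and 0.0719 without S15). Of 12 Schwann cell markers 10 were tested and 0 passed in edgeR, where 6 were lower at an unadjusted p under 0.05 (5.5% of all genes). The median of the 10 was -1.88, and 9 of their fitted changes lay under 0. In 6 members all 35 d libraries lay under the 15 d ones, against 7.77% of all genes. DESeq2 called 4 lower (Ngfr, Sox10, Cdh19 and Foxd3). With the replicate number as a block, edgeR called the same 4 lower (adjusted p from 1.54e-05 to 0.000142). Ngfr, the low-affinity neurotrophin receptor, measured 3.36, 7.17 and 23.2 CPM and then 0, 0.220 and 1.05 CPM, with S3 the highest (-4.53 ± 1.16, adjusted p = 0.05003). The Schwann list summed to 27.0, 31.2 and 60.7 CPM at 15 d and to between 20.5 and 23.1 CPM at 35 d. The library with the replicate number of S3 also had the highest sum of its group after 15 d of KU60019 (84.95 CPM), after 35 d (134 CPM) and after X-rays (60.5 CPM). The same held at 35 d in DMSO (23.1 CPM) and after removal of 35 d of KU60019 (54.7 CPM). It did not hold after removal of 15 d of DMSO (26.8 against 29.2 CPM), 15 d of KU60019 (68.9 against 103 CPM) or 35 d of DMSO (28.3 against 42.3 CPM). edgeR and DESeq2 called 0 mesothelial and 0 lymphoid markers, of which 8 of 9 and 2 of 10 were tested and 0 and 1 were at an unadjusted p under 0.05. Markers of the fibroblast itself did not move as a group: 0 of 15 passed in edgeR or DESeq2 (3 at an unadjusted p under 0.05), the median was -0.01, and they summed to between 32040 and 46100 CPM at 15 d and between 39460 and 46370 CPM at 35 d.

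The 12 largest falls also held genes of mesenchyme. Enpp2, the enzyme autotaxin that makes lysophosphatidic acid, measured 9.49, 10.5 and 3.12 CPM and then 0.335, 0.691 and 0.706 CPM (-3.70 ± 0.55, adjusted p = 0.000585). Shisa3, an antagonist of WNT and FGF receptors, measured 7.39, 7.67 and 4.38 CPM and then 1.38, 0.723 and 0.877 CPM (-2.71 ± 0.53, adjusted p = 0.00849). Shisa3 and Enpp2 had S3 as their lowest 15 d library. Cd34, a sialomucin of endothelium and of adventitial fibroblasts, measured 8.21, 4.77 and 4.07 CPM and then 1.68, 0.471 and 0.667 CPM (-2.63 ± 0.64, adjusted p = 0.0371). Wnt2, a ligand of lung mesenchyme, measured 4.46, 13.1 and 5.25 CPM and then 0.783, 2.01 and 1.32 CPM (-2.46 ± 0.58, adjusted p = 0.0287). Of these, Shisa3 lost its call without S14 or S15 (adjusted p 0.0617 and 0.0719), Cd34 without S1, S2, S14 or S15 (0.0601 to 0.223) and Wnt2 without S2, S13, S14 or S15 (0.0531 to 0.203). Cd34 and Wnt2 were the 2 of 20 fibroblast subset markers that fell; 0 rose and the median of the list was -0.29.

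None of the 6 panel genes passed. Atm, which encodes the kinase that KU60019 blocks, measured 6.87, 2.04 and 7.95 CPM at 15 d and 2.05, 5.40 and 6.14 CPM at 35 d (-0.31 ± 0.41). Cdkn1a, the p21 inhibitor of cyclin-dependent kinases, measured 174, 145 and 170 CPM and then 257, 238 and 226 CPM, without overlap (0.56 ± 0.18, adjusted p = 0.146). Cdkn2a, the p16 and p19ARF locus, measured 31.99, 25.1 and 23.03 CPM and then 50.7, 35.4 and 38.6 CPM, also without overlap (0.64 ± 0.31, adjusted p = 0.577). Mdm2, the p53 ubiquitin ligase, had a log2 fold change of 0.32 ± 0.13 (adjusted p = 0.345). Il6, a cytokine of senescent and inflamed fibroblasts, measured 280, 79.7 and 111 CPM and then 319, 202 and 446 CPM, with overlap (1.04 ± 0.62, adjusted p = 0.779). edgeR called 0 of the 6; Cdkn1a, Mdm2 and Mki67 were at an unadjusted p under 0.05, and DESeq2 called 1, Mki67.

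Mki67, a nuclear protein of cycling cells, measured 19.1, 28.2 and 35.6 CPM at 15 d and 13.9, 19.2 and 11.8 CPM at 35 d. Its libraries overlapped, and the fall did not pass (-0.89 ± 0.24, adjusted p = 0.0611), although it did in 6 of 16 alternatives. On the mitosis list 2 of 25 genes fell and 0 rose, the median was -0.64 and 24 of the fitted changes were under 0, with 18 lower at an unadjusted p under 0.05 against 5.5% of all genes. The 2 that fell were Cenpf, a kinetochore protein (-1.04 ± 0.26, adjusted p = 0.0414), and Nusap1, a spindle protein (-0.79 ± 0.20, adjusted p = 0.0450). Cenpf lost its call without S3, S13 or S15 (adjusted p 0.274, 0.177 and 0.266) and Nusap1 without any library but S1 (0.0732 to 0.268). Summed over the list, the level was 257, 283 and 420 CPM at 15 d and 178, 203 and 249 CPM at 35 d, and so did not overlap. Of 29 DNA replication genes 0 passed in edgeR, 8 were lower at an unadjusted p under 0.05 and DESeq2 called 1; the median was -0.37 and 28 were under 0. Of 29 p53 target genes 3 rose and 0 fell, against 0.455% and 1.11% of all genes, with a median of 0.13. These were Btg2, Plk2 (1.54 ± 0.31, adjusted p = 0.00892) and Plk3 (1.51 ± 0.33, adjusted p = 0.0169), both polo-like kinases of the stress response and also known as serum-induced genes. Plk2 lost its call without S2 (adjusted p = 0.0635) and Plk3 without S2 or S15 (0.114 and 0.136).

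Among secreted signals, ligands moved in both directions. Pdgfb, the PDGF chain that endothelium makes to recruit pericytes, measured 3.08, 1.76 and 2.31 CPM and then 0.112, 0.0943 and 0.134 CPM (-4.32 ± 0.50, adjusted p = 2.71e-05). Tgfa, an EGF receptor ligand, measured 2.81, 0.645 and 0.545 CPM and then 0.112, 0.251 and 0.0381 CPM (-3.37 ± 0.76, adjusted p = 0.0193), a call lost without S1, S13 or S15 (adjusted p 0.196, 0.098 and 0.174). They were the only 2 of 23 FGF, EGF and PDGF family genes that changed. Among 26 cytokines and chemokines, 2 rose and 0 fell. Lif, an IL-6 family cytokine, measured 17.98, 7.74 and 17.3 CPM and then 50.8, 42.3 and 64.2 CPM (1.87 ± 0.47, adjusted p = 0.0414). Csf1, the growth factor of macrophages, measured 411, 237 and 505 CPM and then 765, 844 and 753 CPM (1.03 ± 0.25, adjusted p = 0.0347). This ligand was higher at the time when 6 of 14 macrophage markers were lower. The call of Lif was lost without any 1 of the 6 libraries (adjusted p from 0.0645 to 0.217) and that of Csf1 without any but S3 (0.0819 to 0.193).

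Single genes of the WNT and IGF pathways fell. Sfrp2, a secreted WNT modulator, measured 165, 142 and 117 CPM and then 34.0, 64.9 and 48.9 CPM (-1.52 ± 0.33, adjusted p = 0.0166), and lost its call without S1, S13 or S15 (adjusted p 0.0674, 0.128 and 0.0909). With Wnt2 it made 2 of 22 WNT genes that fell, against 0 that rose, and the list's median was -0.39. At an unadjusted p under 0.05 in edgeR 8 of the 22 were lower, against 5.5% of all genes, and DESeq2 called 4 lower. Igfbp5, an IGF-binding protein of the matrix, measured 1030, 843 and 943 CPM and then 270, 444 and 519 CPM (-1.19 ± 0.29, adjusted p = 0.0344). Its 15 d and 35 d libraries lay far apart, yet the call was lost without any 1 of the 6 libraries (adjusted p from 0.0523 to 0.212). It was the 1 of 10 IGF axis genes that changed, with 5 fitted changes above 0 and 5 under it and a median of -0.08.

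Genes of metabolism and stress gave few calls, though most fitted changes were under 0 on the cholesterol list and above 0 on the ATF4 list. In cholesterol synthesis 2 of 27 genes fell and 0 rose, with a median of -0.38 and 17 genes whose 35 d libraries all lay under the 15 d ones, against 7.77% of all genes. At an unadjusted p under 0.05 in edgeR 13 of the 27 were lower, against 5.5% of all genes, and DESeq2 called 5 lower. Idi1, isopentenyl diphosphate isomerase, measured 18.1, 20.6 and 18.9 CPM and then 10.2, 13.8 and 12.5 CPM (-0.66 ± 0.13, adjusted p = 0.00544, and 0.0531 without S13). Nsdhl, a sterol dehydrogenase, measured 29.1, 29.5 and 29.7 CPM and then 18.6, 20.8 and 20.0 CPM (-0.57 ± 0.12, adjusted p = 0.00836, and 0.0671 and 0.0516 without S13 and S15). These were small changes with little spread within each time. Scd1, the stearoyl-CoA desaturase, had a log2 fold change of -0.69 ± 0.15 (adjusted p = 0.0154), lost without S1, S3, S13 or S15 (0.0606 to 0.0996), and with Cd36 made 2 of 15 lipofibroblast genes that fell. Hmox1, heme oxygenase 1, was the 1 of 23 NRF2 pathway genes that rose, with 220, 192 and 220 CPM and then 375, 369 and 396 CPM (0.85 ± 0.21, adjusted p = 0.0375, and 0.0873 to 0.166 without any 1 library). Ppp1r15a, which encodes the phosphatase subunit GADD34, was the 1 of 21 ATF4 pathway genes that rose, with 52.4, 46.9 and 38.4 CPM and then 125, 124 and 184 CPM (1.65 ± 0.25, adjusted p = 0.000729). That list had a median of 0.31, and 20 of its 21 fitted changes lay above 0. At an unadjusted p under 0.05 in edgeR 7 of the 21 were higher, against 3.58% of all genes, and DESeq2 called 1. In 11 members all 35 d libraries lay above the 15 d ones, against 7.51% of all genes.

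Of 15 imprinted growth genes, 1 rose and 1 fell. Meg3, a maternally expressed long noncoding RNA on chromosome 12 (109541001 to 109571726, plus strand), measured 133, 120 and 146 CPM and then 281, 345 and 240 CPM (1.12 ± 0.21, adjusted p = 0.00428). Plagl1, a zinc finger factor of the imprinted network, measured 9.31, 12.1 and 7.65 CPM and then 2.46, 3.05 and 3.87 CPM (-1.62 ± 0.30, adjusted p = 0.00425). Of 27 lung mesenchyme factors, Meox1 alone changed (-3.40 ± 0.85, adjusted p = 0.0415), from 1.68, 0.323 and 0.262 CPM to 0.224, 0 and 0.0191 CPM. S1 carried most of it and the call was lost without S1, S14 or S15 (adjusted p 0.378, 0.188 and 0.296).

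**Figure D3:**
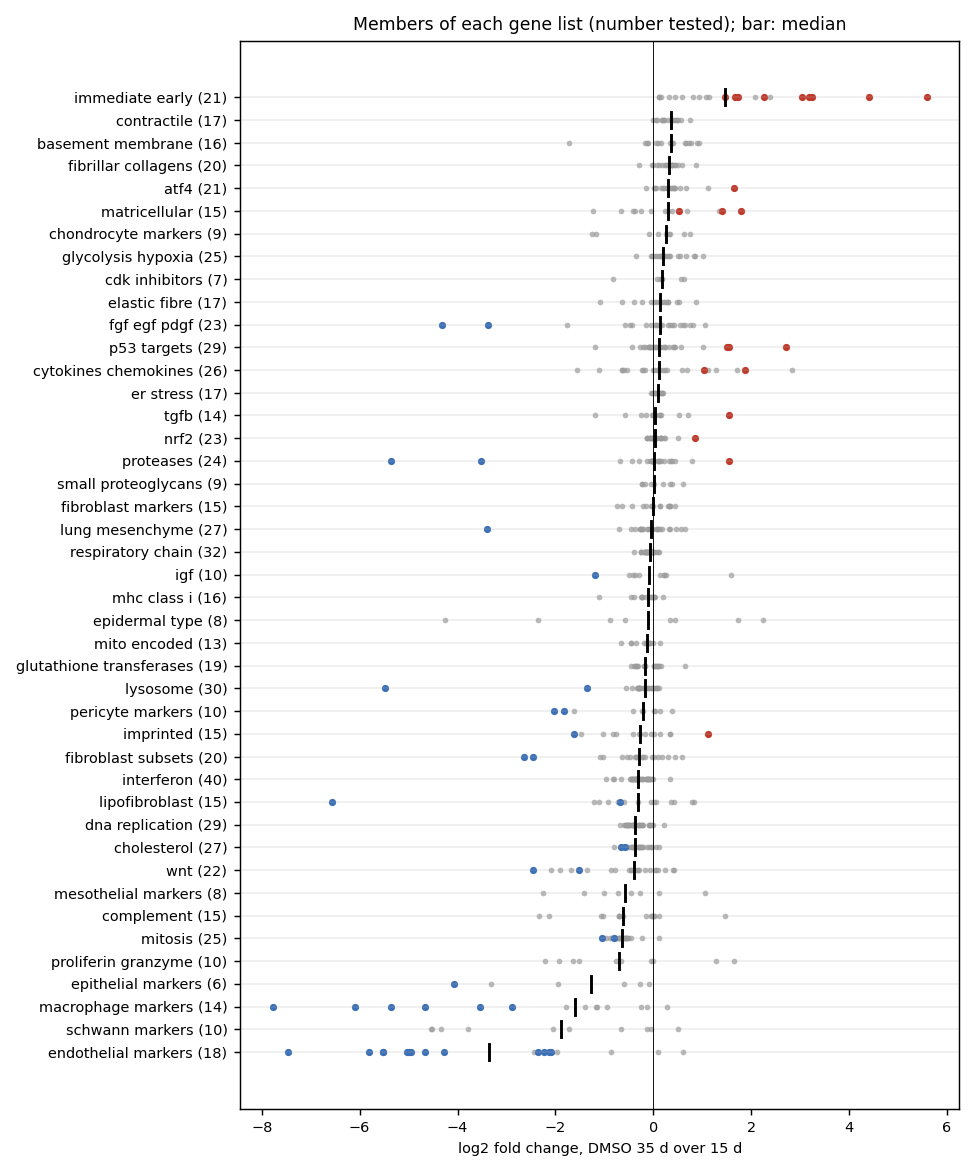
Fitted log2 fold changes (DMSO 35 d over 15 d, x axis) of the members of each gene list with more than 2 tested members, 1 point per gene, with red for genes that rose, blue for those that fell, grey for those that did not pass and a black bar for the list's median. The immediate early list has its median at 1.46 and the endothelial list at -3.36, while the median of all genes is -0.01; the leftmost points of the endothelial and macrophage lists are genes with 0 counts at 35 d.

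Collagen, contractile and interferon lists gave no calls. Of 45 lists with tested members 23 held no called gene. Together these held 349 genes, of which 28 were higher and 35 lower at an unadjusted p under 0.05 in edgeR (3.58% and 5.5% of all genes), and DESeq2 called 5 higher and 7 lower. They included fibrillar collagens and their enzymes (0 of 20, median 0.32), basement membrane genes (0 of 16, median 0.36), contractile genes (0 of 17, median 0.36 with 16 above 0), interferon-stimulated genes (0 of 40, median -0.32 with 38 under 0), complement genes (0 of 15, median -0.61) and proliferin and granzyme genes (0 of 10, median -0.71). Glycolysis and hypoxia genes had a median of 0.20 (0 of 25 called), respiratory chain genes one of -0.06 (0 of 32) and endoplasmic reticulum stress genes one of 0.10 (0 of 17). A p that misses the threshold does not show that these genes were unchanged.

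A further DMSO group reached the same total of days by another route: DMSO was removed after 15 d and the cells were harvested 20 d later. Set against that group, which shares the 35 d libraries with the main comparison, the 35 d DMSO cells differed in 30 genes (0.161% of those tested), 3 higher and 27 lower in continued DMSO. No immediate early gene was among them: edgeR called 0 of 21, with 1 at an unadjusted p under 0.05 (6.41% of all genes), and DESeq2 called 1. Fos measured 462 to 756 CPM in the 3 libraries after removal, and its difference was 0.48 ± 0.44 on the log2 scale. Ier2 measured 298 to 363 CPM (difference 0.23 ± 0.24) and Dusp1 278 to 485 CPM (0.36 ± 0.33). All of these libraries lay well above the 15 d values of 13.2 to 65.3 CPM for Fos and 34.1 to 52.4 CPM for Ier2. Summed over the list, the removal group had 3090, 3380 and 4654 CPM.

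No endothelial or macrophage marker was called different after removal. Pecam1 measured 0.107 to 0.441 CPM (difference 0.63 ± 0.62) and Cdh5 0.540 to 1.07 CPM (-0.53 ± 0.66). edgeR called 0 of 18 endothelial markers (1 at an unadjusted p under 0.05) and 0 of 14 macrophage markers (2 at that p), and DESeq2 called 0 of either. The median difference of the 18 endothelial markers was -0.55. Their sum without Eng was 24.4 to 28.4 CPM at 35 d in DMSO and 60.8 to 165 CPM at 15 d. After removal it was 37.4 to 51.1 CPM, which lay between these ranges. Igfbp5 measured 442 to 484 CPM and Gpnmb 48.1 to 79.0 CPM, inside their ranges at 35 d in DMSO. Among the genes that did differ, chosen after their values were seen, Meg3 was lower in continued DMSO (240 to 345 CPM against 527 to 704 CPM, -1.06 ± 0.21, adjusted p = 0.0312), as was Pycr1 (-0.82 ± 0.13, adjusted p = 0.0113), an enzyme of proline synthesis. Cxcl5, a neutrophil chemokine, was higher (24.8 to 33.0 CPM against 4.22 to 5.76 CPM, 2.45 ± 0.46, adjusted p = 0.0233). Of 17 contractile genes 13 were lower in continued DMSO at an unadjusted p under 0.05, against 4.23% of all genes, though 0 passed in edgeR and DESeq2 called 3. The count of 30 was 0 without S14, where 1107 genes were at an unadjusted p under 0.05, and 11 and 5 without S13 and S15. It was 9 and 7 without the removal libraries S8 and S9.

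**Figure D4:**
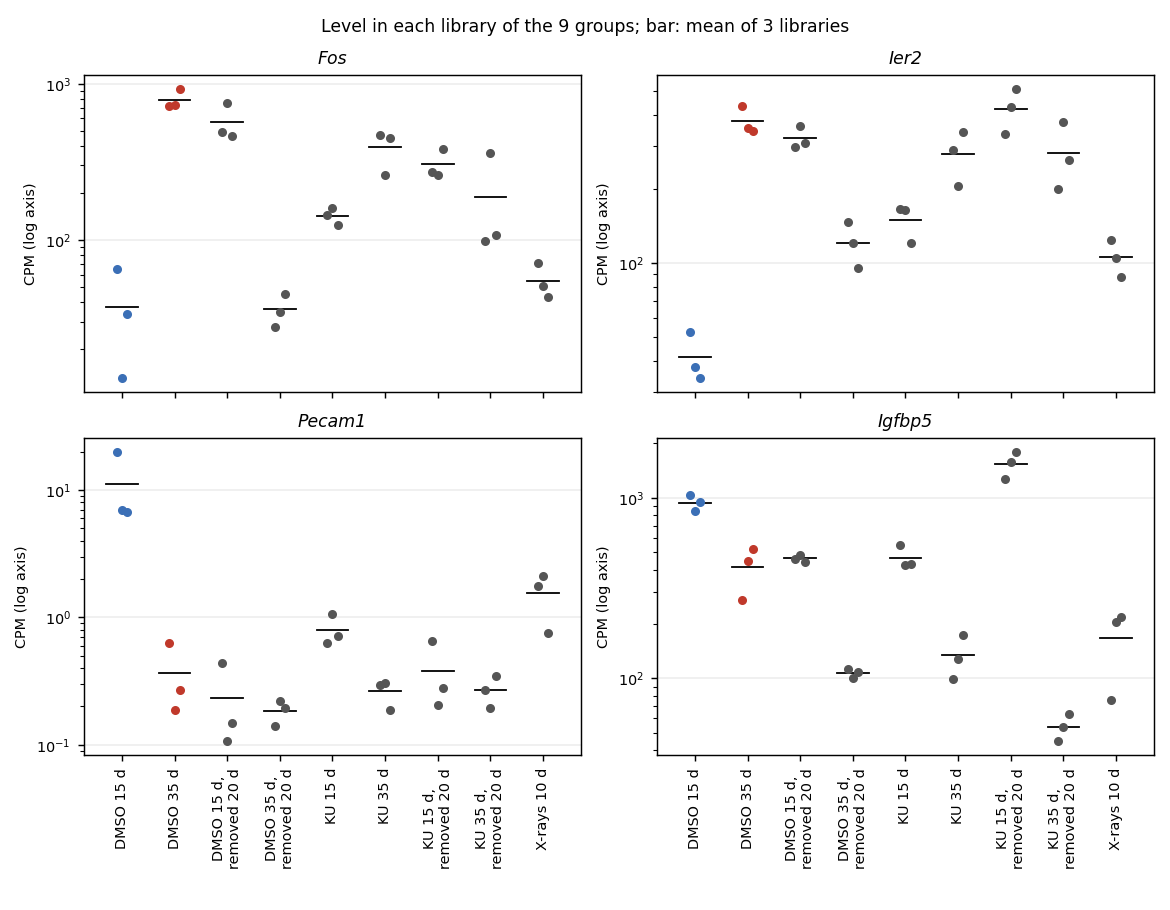
Level (CPM, log axis) of Fos, Ier2, Pecam1 and Igfbp5 in each library of the 9 groups, with DMSO 15 d in blue, DMSO 35 d in red and a bar for each group's mean of 3 libraries (KU stands for KU60019). Fos and Ier2 are high at 35 d in DMSO and after removal at the same total time. In the group 20 d after the removal of 15 d of KU60019, Fos is at 262 to 384 CPM and Ier2 at 334 to 511 CPM. Pecam1 is highest in DMSO at 15 d (6.75 to 19.9 CPM). Igfbp5 is highest 20 d after the removal of 15 d of KU60019 (1265 to 1792 CPM).

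The level of Fos also varied among the other groups of the series. It measured 125 to 160 CPM after 15 d of KU60019 and 260 to 472 CPM after 35 d. In cells harvested 20 d after KU60019 was removed, it was 262 to 384 CPM (15 d of inhibitor) and 98.3 to 363 CPM (35 d). It was 28.0 to 45.4 CPM in cells harvested 20 d after 35 d of DMSO, and 43.2 to 70.9 CPM after X-rays. The last 2 ranges overlap that of 15 d in DMSO (13.2 to 65.3 CPM), so the culture harvested last of all the DMSO groups was at the low level. That culture also had a mitosis list sum of 2021 to 2865 CPM, against 178 to 249 CPM at 35 d in DMSO. Its Mki67 level was 338 to 480 CPM, against 11.8 to 19.2 CPM. A relation between cell cycling and the level of Fos was not tested. Pecam1 measured 0.627 to 1.07 CPM after 15 d of KU60019 and 0.754 to 2.13 CPM after X-rays, both under the 6.75 to 19.9 CPM of DMSO at 15 d. Igfbp5 was highest of these groups after 15 d of KU60019 and 20 d without it, at 1265 to 1792 CPM.

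The change over time was also compared with that in KU60019, as the difference between the 2 time changes, tested within the same model. That difference contains the DMSO change for which most genes here were named. Between 15 and 35 d of KU60019 2543 genes were higher (13.6%) and 2175 lower (11.6%), so the time change in inhibitor took in many more genes than that in DMSO. The time changes differed in 2184 genes (11.7%), with a higher change in KU60019 in 7.11% of genes and a lower one in 4.58%. Of the 85 genes higher in DMSO at 35 d, 29 were higher and 8 lower over time in KU60019. Of the 207 lower genes, 28 were higher and 30 lower.

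Of the 21 immediate early genes, 10 had a smaller change over time in KU60019 than in DMSO and 0 a larger one, and the median difference was -1.42. In KU60019 itself 3 members rose and 3 fell, with a median of 0.40. Fos went from 125 to 160 CPM to 260 to 472 CPM (1.46 ± 0.45, adjusted p = 0.0209), and its change was smaller than in DMSO by 2.94 ± 0.64 on the log2 scale (adjusted p = 0.004). Its starting level in KU60019 lay above every DMSO 15 d library. Ier2 went from 121 to 166 CPM to 206 to 341 CPM (0.89 ± 0.24, adjusted p = 0.00777; difference -2.30 ± 0.34, adjusted p = 0.00014). Hes1 and Ptgs2 fell over time in KU60019 (-1.79 ± 0.32 and -1.45 ± 0.47, adjusted p = 0.000294 and 0.0253) while they rose in DMSO, and the differences were -3.97 ± 0.46 and -4.15 ± 0.67 (adjusted p = 1.61e-05 and 0.000356). Both started high in KU60019, Ptgs2 at 236 to 263 CPM and Hes1 at 45.4 to 64.6 CPM. Ccn2 fell over time in KU60019 (-0.97, adjusted p = 0.00987; difference -2.38 ± 0.38, adjusted p = 0.000301).

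For endothelial and macrophage markers the called differences went the other way, while those of pericyte, epithelial and mesothelial markers went both ways. Of 18 endothelial markers 7 differed, all towards a smaller fall or a rise in KU60019; 5 fell and 2 rose over time there and the median was -1.05. Pecam1 went from 0.627 to 1.07 CPM to 0.187 to 0.307 CPM (-1.57 ± 0.56, adjusted p = 0.0443; difference 3.42 ± 0.79, adjusted p = 0.00601). The endothelial sum without Eng was 25.6 to 32.7 CPM after 15 d of KU60019, close to that of DMSO at 35 d. Of 14 macrophage markers 6 differed, all higher, with 3 that rose and 1 that fell in KU60019. The contractile list, with no call in DMSO, fell in 14 of 17 genes and rose in 1 over time in KU60019, and 13 differences were called. For other members the difference between the arms did not pass. Kcnj8 fell by 2.19 ± 0.36 on the log2 scale in KU60019 and the difference was -0.16 ± 0.49 (adjusted p = 0.898). Gpnmb fell by 1.602 ± 0.28 (difference -0.24 ± 0.38), Igfbp5 by 1.79 ± 0.29 (-0.60 ± 0.40) and Itga11 rose by 2.76 ± 0.39 (0.88 ± 0.51).

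**Figure D5:**
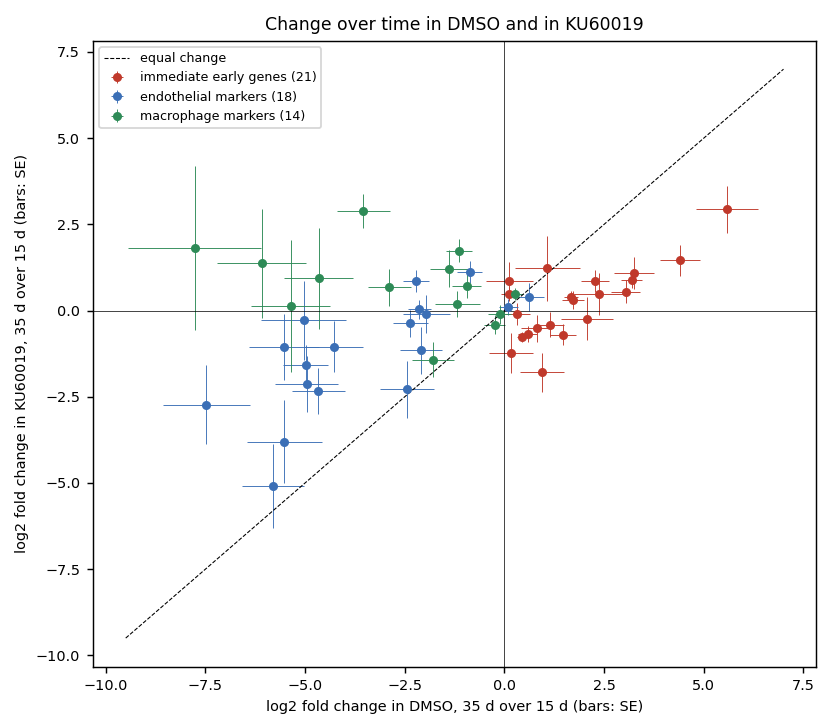
Fitted log2 change from 15 to 35 d in DMSO (x axis) and in KU60019 (y axis) of the immediate early genes (red), endothelial markers (blue) and macrophage markers (green), 1 point per gene, with bars for 1 SE and a dashed line of equal change; the 2 arms share no library. Fos lies at 4.40 and 1.46 and Pecam1 at -4.99 and -1.57, both nearer to 0 in KU60019 than in DMSO.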

How the data were processed

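Total RNA was made into TruSeq libraries, per the labels' protocols. The authors deposited raw read counts per gene and TPM values of the same libraries; per the submitters' processing notes, featureCounts and mm10 were used. The sources used here do not name the aligner, annotation release, versions or strand setting, which leaves overlapping or antisense genes and near-identical copies uncertain. Groups and replicate numbers came from titles; 0 columns belonged to unmatched samples. Of 48440 gene IDs, 48058 were given a symbol from GENCODE M21, whose GRCm38 positions are used.

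Deposited counts of genes kept by filterByExpr (minimum count 10) were scaled by TMM and fitted in R 4.3.3 with the robust quasi-likelihood method of edgeR 4.0.16. The model had 1 mean per group over all 27 libraries, and p-values were Benjamini-Hochberg adjusted, with a threshold of 0.05. An SE is the size of the log2 fold change over the root of its F statistic. The statistic was tested on simulated counts. A gene with 0 counts in a group was given a floor of 3 counts in all; ratios from few counts carry 95% exact intervals, and both cover counting error only. Replicates of the DMSO groups differed by more than sampling noise (chi-square per gene at least 13.9).

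The libraries, the 45 gene lists and the tests were chosen with earlier results of these data known, so a list's direction is not independent evidence. Genes were named by a rule: 6 panel genes, 12 rises and 12 falls of the largest size (adjusted p under 0.05, at least 5 CPM in the higher group, no overlap of libraries, no predicted or clone names), and per list the 4 lowest p-values and both ends of its range. The remaining list members and the calls of the 6-library fit were named after their values were seen. Some genes the rule would name are not reported here. Promoters are RefSeq's. Alternatives were DESeq2 1.42.0, scaling by RLE or by library size alone, no filter on counts, the 6 DMSO libraries alone, the replicate number as a block, limma 3.58.1 on log2(TPM + 1) and log2(TPM + 0.1) for genes that reached 1 TPM in 3 libraries, the gene length trend removed, protein-coding genes alone and each library left out.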

Additional observations from a re-analysis of the deposited data

Results flagged for a closer look

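For 40 named genes the change from 15 to 35 d differed between KU60019 and DMSO, by edgeR's test of the difference itself at an adjusted p under 0.05 over all genes. Values are the log2 change over time in KU60019 minus that in DMSO. Of the immediate early genes and other rapidly induced or stress genes, the values were Fos -2.945, Egr1 -2.16, Ier2 -2.30, Ier3 -1.27, Jun -1.42, Fosl1 -2.16, Dusp1 -2.49, Zfp36 -1.675, Btg2 -2.05, Plk2 -2.004, Plk3 -2.01 and Ppp1r15a -1.65, each a smaller rise or a fall in KU60019. Secreted factors and other genes that rose in DMSO had Ptgs2 -4.15, Hes1 -3.97, Ccn1 -1.40, Ccn2 -2.38, Csf1 -1.09, Lif -2.955 and Hmox1 -1.22. Mdm2, which passed in neither arm, had -0.55. Endothelial and related genes had Pecam1 3.42, Cd93 2.51, Egfl7 2.17, Stab1 3.72, Cd34 3.88 and Pdgfb 4.09, a smaller fall or a rise with the inhibitor. Macrophage genes had C1qb 7.46, Cd74 6.425, Mrc1 3.56, Ctss 5.61 and Ccl6 5.04. The Schwann cell genes had Ngfr 5.09, Sox10 4.54 and Foxd3 5.37. Other genes that fell in DMSO had Cd36 8.49, Enpp2 4.81, Shisa3 5.14, Tgfa 4.18, Plagl1 2.42 and Idi1 0.58. The value of Cd36 rests on 0 counts in 1 DMSO group and depends on the prior count of the fit, so it is no measured size; those of C1qb, Cd74 and Ctss rest on 2 counts each in DMSO at 35 d. The 40 were picked out of the named genes, and 11.7% of all genes tested differed by the same test. Most named genes were chosen for their change in DMSO, and the difference contains that same change. The number of 40 can therefore not be set against that share, and the signs are no independent evidence.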

How the results depend on the processing

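The main count of 292 changed genes (85 higher, 207 lower) was 287 with RLE size factors, 249 without the filter, 310 with the gene length trend removed and 321 with protein-coding genes alone. It was 476 with DESeq2 (156 and 320), 141 with limma on log2(TPM + 1) (36 and 105), 102 on log2(TPM + 0.1) (32 and 70) and 14 with the 6 DMSO libraries alone (8 and 6). With library size alone it was 290, but only 55 were higher (19% against 29.1%), with the median of all genes at -0.08. Leaving out 1 library gave 125 to 288 genes (40 to 71 higher, 85 to 217 lower). Of the 292, DESeq2 shared 288, RLE 284 and limma on log2(TPM + 1) 122.

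Same-numbered DMSO libraries deviated from their group means with r of -0.316, -0.424 and 0.406. The labels do not say what the numbers mark, and they were not taken to pair samples. With 3 libraries a group, such correlations cannot exclude a pairing. Other groups gave r of 0.219 to 0.393 (DMSO and KU60019 at 15 d) and 0.0747 to 0.243 (DMSO at 35 d and after removal), where each library matched its own number best, and -0.283 to -0.00713 (DMSO and KU60019 at 35 d). With the replicate block 400 genes changed (125 higher, 275 lower), and 4 of 10 Schwann markers fell, with adjusted p-values in edgeR of 1.54e-05 (Ngfr), 1.62e-05 (Sox10), 0.000142 (Cdh19) and 0.000125 (Foxd3). The count against DMSO removed at equal time was 30, and 166 with DESeq2, 51 with the replicate block and 0 to 24 without 1 library. The count of time changes that differed between KU60019 and DMSO was 2184, and 1409 to 2319 without 1 library.

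Of 78 named genes 64 were called. With the 6 DMSO libraries alone, 9 of these stayed called, 48 lost the call and the rest were not tested. Only genes that did not pass changed sign: without 1 library Atm ranged from -0.70 to 0.027 (log2), Fosl2 from -0.078 to 0.32 and Eng from -0.037 to 0.18. The causes were not tested. Depth limits the lower genes most, since 50 of the 207 were under 1 CPM at 15 d.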
